A study of Homo sapiens with 12 samples.

Results

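The 10 genes examined here code for enzymes that build purine and pyrimidine nucleotides: PPAT, GART, PFAS, PAICS, ADSL, ATIC and IMPDH2 of the purine route, CAD and UMPS of the pyrimidine route, and TYMS, which makes thymidylate. They were taken as a fixed list of symbols from the 60609 genes in the count files, and all 10 were found by Ensembl identifier and passed the filter on low counts. Their expression was compared between K562 cells, an established human leukemia cell line, treated with DMSO (3 libraries) and K562 cells treated for 48 h with 10 μM FT671, a compound that inhibits USP7, an enzyme that removes ubiquitin from proteins (3 libraries). The labels give no other agent or genetic change in either group, and 1 cell line was used, so that every value is of that line. ChIP-seq libraries of the same series were not analysed here.

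Purines are built stepwise on phosphoribosyl pyrophosphate (PRPP), the activated ribose that PRPS enzymes make. PPAT commits PRPP to the route, and GART, PFAS, PAICS, ADSL and ATIC carry the growing ring to inosine monophosphate (IMP), from which IMPDH and GMPS lead to GMP and ADSS and ADSL to AMP. Pyrimidines are built in the opposite order: CAD and the mitochondrial enzyme DHODH complete the ring before UMPS joins it to PRPP and yields UMP. TYMS methylates dUMP with a folate cofactor. Dividing leukemia cells use these routes to supply RNA and DNA synthesis, and several of the enzymes are targets of antimetabolite drugs.

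Read counts per library totaled 4555220 to 14250500, so that 3 counts, taken as the smallest detectable expression, corresponded to 0.659 CPM, the count scaled to a common library total, in the shallowest and 0.211 CPM in the deepest library. The floor allows for counting error alone, because the reads carry no molecular identifiers and can repeat 1 molecule. Of 16 erythroid markers of K562 cells, 15 passed the filter. After FT671, 8 of these fell and 6 rose at an adjusted p of 0.05 in edgeR's test, against 26.5% and 23.6% of all genes tested. The summed level of the 16 was 1510 to 1520 CPM in DMSO and 1320 to 1370 CPM after FT671, which does not show these opposite changes. CD8A, CD2, MS4A1, S100A8, S100A9, COL3A1, PDGFRA and LUM, defining markers of T cells, B cells, monocytes and fibroblasts, had 0 counts in all 6 libraries. The 6 T cell markers summed to 17.2 to 20.6 CPM in DMSO and 24.5 to 29.8 CPM after FT671, with CD3D holding 581 and 527 of the counts. The 6 monocyte markers summed to 51.2 to 54.3 CPM and 72.2 to 76.0 CPM, nearly all of it LYZ. The 5 B cell markers summed to 2.03 to 3.94 CPM and 2.86 to 4.0 CPM, the 6 fibroblast markers to 2.38 to 2.91 CPM and 2.59 to 2.89 CPM, and 5 hepatocyte markers to at most 0.179 CPM in any library. The part of these markers in the results was not tested.

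The promoter sequences of PAICS, ATIC, CAD and UMPS are shown because the first pair of genes rose and the second pair fell after FT671. The sequences were thus picked by the values of their genes, and whether a motif goes with a change was not tested. The PAICS sequence is also the start region of PPAT, a gene that lies head to head with PAICS and did not pass the test. Each is the RefSeq window of 300 bases, 250 before the start site and 50 from it onward. In capitals is the hexamer CACGTG, the E-box read by MYC and related factors. PFAS, which also rose and is not shown, has no CACGTG in its window. Bases outside the windows were not searched.
PAICS and PPAT (GRCh38.p14, chr4:56435502-56435801, plus strand): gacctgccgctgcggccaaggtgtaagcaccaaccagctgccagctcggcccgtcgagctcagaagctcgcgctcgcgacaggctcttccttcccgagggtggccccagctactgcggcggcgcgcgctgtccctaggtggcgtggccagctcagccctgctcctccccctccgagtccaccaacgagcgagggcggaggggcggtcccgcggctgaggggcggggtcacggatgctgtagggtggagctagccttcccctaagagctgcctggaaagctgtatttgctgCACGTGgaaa
ATIC (GRCh38.p14, chr2:215311809-215312108, plus strand): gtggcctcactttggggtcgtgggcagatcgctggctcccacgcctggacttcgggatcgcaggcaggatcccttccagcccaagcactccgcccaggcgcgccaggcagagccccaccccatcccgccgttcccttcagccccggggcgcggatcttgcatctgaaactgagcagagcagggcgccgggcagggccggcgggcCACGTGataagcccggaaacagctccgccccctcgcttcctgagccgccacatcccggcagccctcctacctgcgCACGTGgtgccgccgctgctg
CAD (GRCh38.p14, chr2:27217119-27217418, plus strand): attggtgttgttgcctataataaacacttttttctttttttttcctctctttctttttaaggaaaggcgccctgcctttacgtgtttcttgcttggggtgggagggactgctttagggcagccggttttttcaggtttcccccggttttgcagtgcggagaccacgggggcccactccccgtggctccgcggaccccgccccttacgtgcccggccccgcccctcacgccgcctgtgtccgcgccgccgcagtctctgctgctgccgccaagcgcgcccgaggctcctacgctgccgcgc
UMPS (GRCh38.p14, chr3:124730202-124730501, plus strand): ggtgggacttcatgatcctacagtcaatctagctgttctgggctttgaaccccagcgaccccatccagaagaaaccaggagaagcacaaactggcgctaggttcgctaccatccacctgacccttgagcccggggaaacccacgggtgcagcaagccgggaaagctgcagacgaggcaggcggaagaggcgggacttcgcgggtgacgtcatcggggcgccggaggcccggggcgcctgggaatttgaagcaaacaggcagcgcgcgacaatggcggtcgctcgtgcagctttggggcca

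RefSeq windows were found for 8 of the 10 genes, and those of IMPDH2 and ADSL were not. GART and PAICS had 3 windows each, of which the one nearest to the GENCODE start was used. The start site of the window is at 8249289 for PFAS and 33542892 for GART, while GENCODE starts these genes at 8247618 and 33543491. The matches for these 2 genes therefore do not describe the GENCODE starts. The start sites of PPAT and PAICS lie 137 bases apart in RefSeq, and their windows share 236 bases and the same E-box. Searched for CACGTG, which reads alike on both strands, the windows of PPAT, PAICS and ATIC held it, ATIC at 2 positions, and those of GART, PFAS, CAD, UMPS and TYMS did not. The share of all 35116 RefSeq windows with this hexamer was 7.26%. The GC box GGGCGG, searched on both strands, was in the windows of PPAT, PFAS, PAICS, ATIC and CAD, against 45% of all windows, and CCAAT, also on both strands, was in those of GART and CAD, against 34.6%. None of the 8 windows held TATAAA (11.5% of all), CCGGAAG (10.3%), TTTCGCGC (0.515%) or TTTGGCGC (0.652%), each searched on both strands. Their content of G and C ran from 57.0% in PFAS to 72.0% in TYMS, and the median over all windows was 58.7%. These matches describe the letters of the windows and not the binding of a factor.

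After FT671, 4 of the 10 enzymes rose at an adjusted p of 0.05, all of them in the purine route (PFAS, PAICS, ATIC and IMPDH2), and 2 fell, both pyrimidine enzymes (CAD and UMPS). PPAT, GART, ADSL and TYMS did not pass the test. Expression was compared by edgeR's quasi-likelihood test over all 13895 genes that passed the filter, of which 23.6% were higher and 26.5% lower at the same threshold, and 8 of the 10 enzymes had an unadjusted p under 0.05, as did 56.1% of all genes tested. The median log2 fold change of the 10 was 0.12, against −0.010 for all genes tested, and their summed level was 2030 to 2080 CPM in DMSO and 2370 to 2430 CPM after FT671. The sum is weighted to abundant genes such as PAICS and does not show the falls of CAD and UMPS. The 10 were chosen with earlier results of these data known, so their comparison with all genes is not independent of the data. In 5 genes every FT671 library was higher than every DMSO library and in 2 every one was lower, while 26.8% and 30.3% of all genes tested showed such a separation. At the stricter threshold of 1e-05, passed by 1.79% of all genes as higher and 4.13% as lower, edgeR called 0 of the 10, whereas DESeq2's Wald test called PAICS and UMPS, and edgeR without DMSO replicate 3 called 3. In bulk RNA, a change in the share of cells expressing a gene and a change in the RNA per cell cannot be told apart. P-values measure the spread between these libraries, which the study describes as independent experiments.

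**Figure D1:**
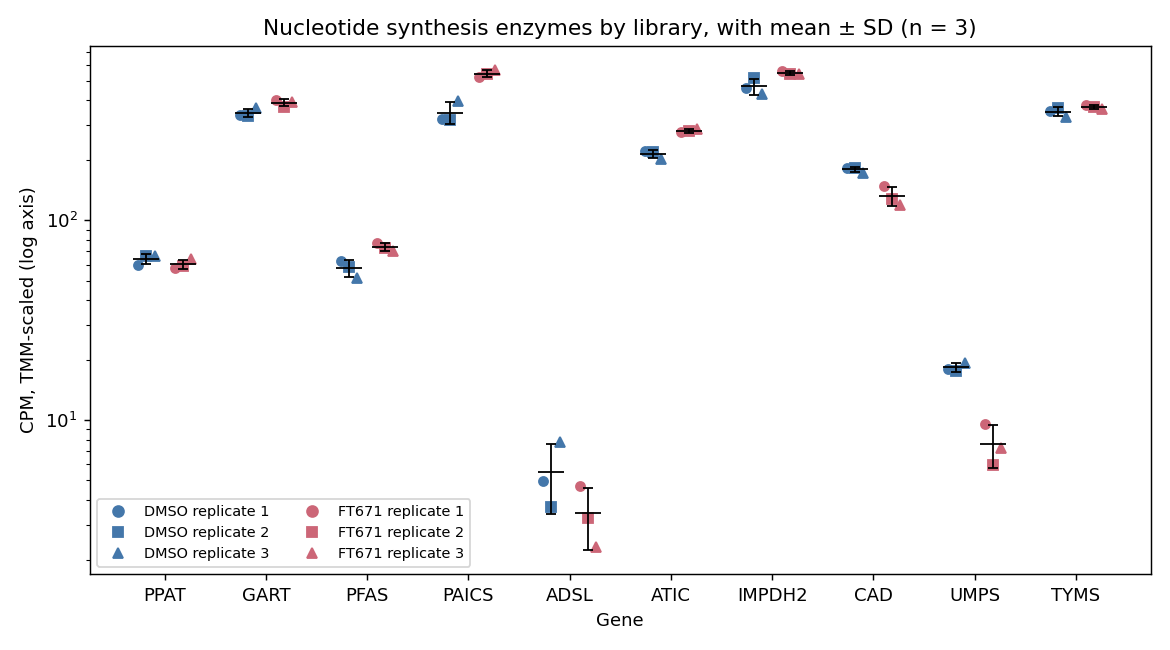
Expression of the 10 enzymes in each library, as CPM scaled by TMM on a log axis, with blue symbols for DMSO, red symbols for FT671 and a shape for each replicate number. Black bars give the mean and SD of 3 libraries. PAICS, ATIC, PFAS, GART and IMPDH2 lie higher in every FT671 library, CAD and UMPS lower, and the groups of PPAT, ADSL and TYMS overlap.

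PPAT (ENSG00000128059, chromosome 4 from 56393362 to 56435615 in hg38, minus strand), which catalyses the committed step of purine synthesis, had 59.7, 66.0 and 66.0 CPM in DMSO replicates 1, 2 and 3 and 57.7, 59.2 and 63.7 CPM after FT671. The groups overlapped. Its log2 fold change was −0.076, or 0.013 after the gene length correction, and the 95% interval of −0.27 to 0.11 held 0 (adjusted p = 0.497 from edgeR).

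PAICS (ENSG00000128050, chromosome 4 from 56435741 to 56464578, plus strand) carries 2 consecutive activities in the middle of the route. It was at 322, 319 and 397 CPM in the DMSO libraries and at 522, 540.0 and 566 CPM in the FT671 libraries. All FT671 libraries were higher than DMSO replicate 3, itself the highest of the DMSO group. PAICS rose 1.57-fold, the largest rise among the 10 (0.65 on the log2 scale with an SE of 0.0859, edgeR adjusted p = 3e-05), and 90.4% of all genes tested had a lower log2 fold change. Without DMSO replicate 3 the log2 fold change of PAICS was 0.76 (adjusted p = 3.63e-11).

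PAICS and PPAT, whose starts are 126 bp apart in GENCODE, thus differed in their values. The ratio of PAICS to PPAT counts, which needs no scaling between libraries, was 5.40, 4.84 and 6.01 in DMSO and 9.04, 9.12 and 8.89 after FT671. Each FT671 library had a higher ratio than each DMSO library, and the FT671 ratios lay closer together. The mean log2 ratio went from 2.43 ± 0.157 to 3.17 ± 0.019 (SD, n = 3 each), a 1.67-fold difference (exact permutation test, two-sided, p = 0.1, which is the lowest value this design can reach). In GENCODE, no exon of PPAT overlaps an exon of PAICS.

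GART (ENSG00000159131, chromosome 21 from 33503931 to 33543491, minus strand), an enzyme with activities at several early steps, was measured at 337.5, 334 and 363 CPM in DMSO and at 401, 371.5 and 392 CPM after FT671. The groups did not overlap, but the log2 fold change of 0.17 (95% interval 0.024 to 0.32) had an adjusted p of 0.0514 from edgeR. GART passed 0.05 under 9 of 16 alternatives, among them DESeq2's Wald test (0.19, adjusted p = 0.0408) and the gene length correction (0.30, adjusted p = 9.31e-04). SON, which starts 453 bp from GART on the opposite strand and codes for a splicing cofactor, fell by 0.27 on the log2 scale (adjusted p = 0.00377 from edgeR).

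PFAS (ENSG00000178921, chromosome 17 from 8247618 to 8270491, plus strand), which adds an amide nitrogen from glutamine, was at 62.7, 58.4 and 51.4 CPM in DMSO and at 77.3, 73.1 and 70.4 CPM after FT671. Every FT671 library was higher. It rose 1.27-fold (0.34 on the log2 scale with an SE of 0.0931, edgeR adjusted p = 0.00761). CTC1, which starts 440 bp away on the opposite strand, had a log2 fold change of 0.24 (adjusted p = 0.168).

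ADSL (ENSG00000239900, chromosome 22 from 40346461 to 40390463, plus strand) acts both before IMP and on the branch to AMP. Its counts were low, at 72, 40 and 42 in DMSO and 21, 18 and 26 after FT671, or 4.99, 3.66 and 7.76 CPM against 4.66, 3.25 and 2.32 CPM. The ranges overlapped, and the log2 fold change of −0.71 (95% interval −1.38 to −0.039) had an adjusted p of 0.0731 from edgeR. It passed 0.05 without DMSO replicate 2 (−0.92, adjusted p = 0.0273), without FT671 replicate 1 (−0.95, adjusted p = 0.0392) and without a filter on low counts (−0.74, adjusted p = 0.0210). Of the 4359 bases in its canonical transcript, 1336 (30.6%) are also exon of the gene ENSG00000284431 on the same strand, and STAR's gene counting leaves out reads that fall on exons of 2 genes. ENSG00000284431 itself had 5 counts over the 6 libraries. How many ADSL reads were left out was not tested.

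ATIC (ENSG00000138363, chromosome 2 from 215311956 to 215349773, plus strand), which closes the ring to IMP, was measured in DMSO libraries at 222, 220 and 203 CPM and in FT671 libraries at 276, 280 and 287 CPM. The groups were well apart, and ATIC rose 1.31-fold (0.39 on the log2 scale with an SE of 0.0685, edgeR adjusted p = 3.63e-04). No other annotated gene overlaps it.

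IMPDH2 (ENSG00000178035, chromosome 3 from 49024325 to 49029447, minus strand), the main isozyme of the rate-limiting step towards GMP, had the highest mean CPM of the 10 in DMSO. After FT671 its range overlapped with that of PAICS. It was at 462, 515 and 429 CPM in DMSO and at 559, 537.5 and 543 CPM after FT671. The lowest FT671 library was only slightly higher than DMSO replicate 2. IMPDH2 rose 1.16-fold (0.22 on the log2 scale with an SE of 0.0755, edgeR adjusted p = 0.0256). This call was lost without DMSO replicate 1 (adjusted p = 0.0808), without FT671 replicate 1, 2 or 3 (adjusted p = 0.0802, 0.0666 and 0.0715) and without the filter on low counts (adjusted p = 0.107).

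Its isozyme IMPDH1, not among the 10, fell to 0.635 times its DMSO level, from 49.2 ± 3.25 to 31.8 ± 6.57 CPM (SD, n = 3 each; log2 fold change −0.66, adjusted p = 7.05e-04 from edgeR). The ratio of IMPDH2 to IMPDH1 counts was 9.13, 10.0 and 9.43 in DMSO and 14.2, 19.9 and 18.7 after FT671. All FT671 ratios were higher, with replicate 1 nearest to DMSO. The mean log2 ratio was 3.25 ± 0.066 and 4.12 ± 0.257 (SD, n = 3 each), a 1.83-fold difference (exact permutation test, two-sided, p = 0.1, again the lowest value possible). An lncRNA gene on the opposite strand, ENSG00000272434, shares 83 bases (5.03%) of the canonical transcript of IMPDH2. Reads that match both isozymes alike could not be examined in the counts.

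**Figure D2:**
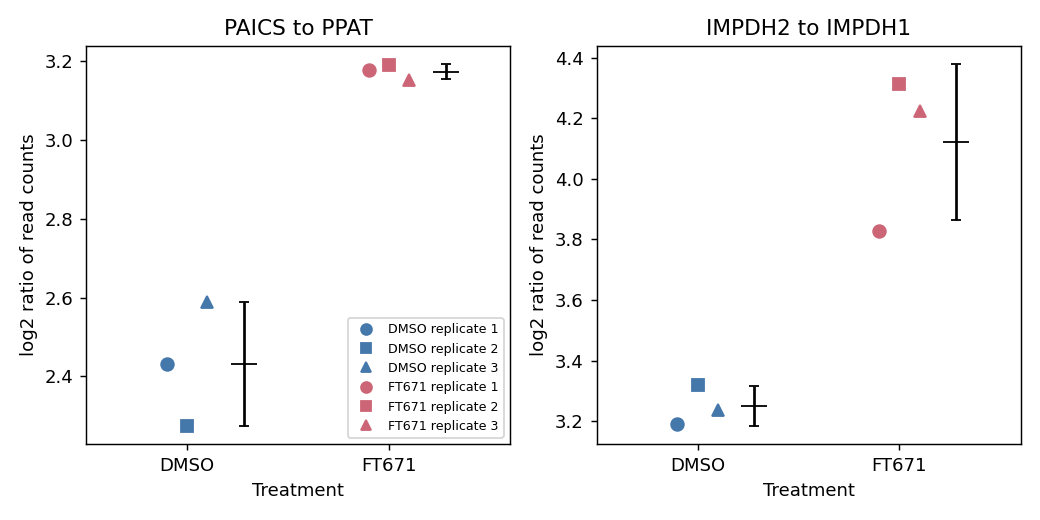
The log2 ratio of read counts of PAICS to PPAT (left) and of IMPDH2 to IMPDH1 (right) in each library, with the mean and SD of 3 libraries as black bars; the axes do not start at 0. In both panels all 3 FT671 libraries lie higher than all 3 DMSO libraries.

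CAD (ENSG00000084774, chromosome 2 from 27217369 to 27243943, plus strand) joins the first 3 activities of pyrimidine synthesis in 1 protein. It was at 183, 184 and 173 CPM in DMSO and at 148, 129 and 119.6 CPM after FT671. No FT671 library reached the lowest DMSO library. CAD fell by 0.46 on the log2 scale, to 0.729 times its DMSO level (SE 0.0838 on the log2 scale, edgeR adjusted p = 4.80e-04).

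UMPS (ENSG00000114491, chromosome 3 from 124730433 to 124749273, plus strand), which makes UMP, showed the largest change of the 10. Its counts were 261, 193 and 105 in DMSO and 43, 33 and 81 after FT671, or 18.1, 17.7 and 19.4 CPM against 9.55, 5.95 and 7.24 CPM. DMSO libraries lay close together, FT671 libraries were more spread, and the groups were far apart. UMPS fell to 0.408 times its DMSO level (−1.30 on the log2 scale with an SE of 0.159, edgeR adjusted p = 1.64e-05), and 3.27% of all genes tested had a lower log2 fold change. Between these enzymes in the route, DHODH, not among the 10, rose 1.57-fold, from 13.4 ± 0.178 to 20.8 ± 2.07 CPM (SD, n = 3 each; adjusted p = 6.19e-04 from edgeR).

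TYMS (ENSG00000176890, chromosome 18 from 657653 to 673578, plus strand), the thymidylate synthase inhibited by fluoropyrimidines, was at 355, 365 and 330.3 CPM in DMSO and at 377, 368 and 361 CPM after FT671. The groups overlapped, and the log2 fold change of 0.075 had a 95% interval of −0.071 to 0.22 (adjusted p = 0.379 from edgeR). Of the 1613 bases of its canonical transcript, 66.5% are also exon of genes on the opposite strand, ENOSF1 and TYMSOS among them, and the strand setting of the counting is not given in the sources used here. The opposite-strand genes ENOSF1 and TYMSOS had log2 fold changes of 0.034 and −0.16, neither past 0.05. Of 32 S-phase genes listed beside TYMS, 11 fell and 8 rose, shares near the 26.5% lower and 23.6% higher over all genes. Their median log2 fold change was −0.11 and their summed level 5050 to 5290 CPM in DMSO and 5000 to 5070 CPM after FT671. The count of those that rose was 5 without DMSO replicate 1 or FT671 replicate 1, 4 without FT671 replicate 2 and 3 without FT671 replicate 3. PCNA, the sliding clamp of DNA polymerases, was the lowest of them (−1.44) and MCM4, a subunit of the replicative helicase, the highest (0.45). The part of these genes in the values of TYMS was not tested.

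**Figure D3:**
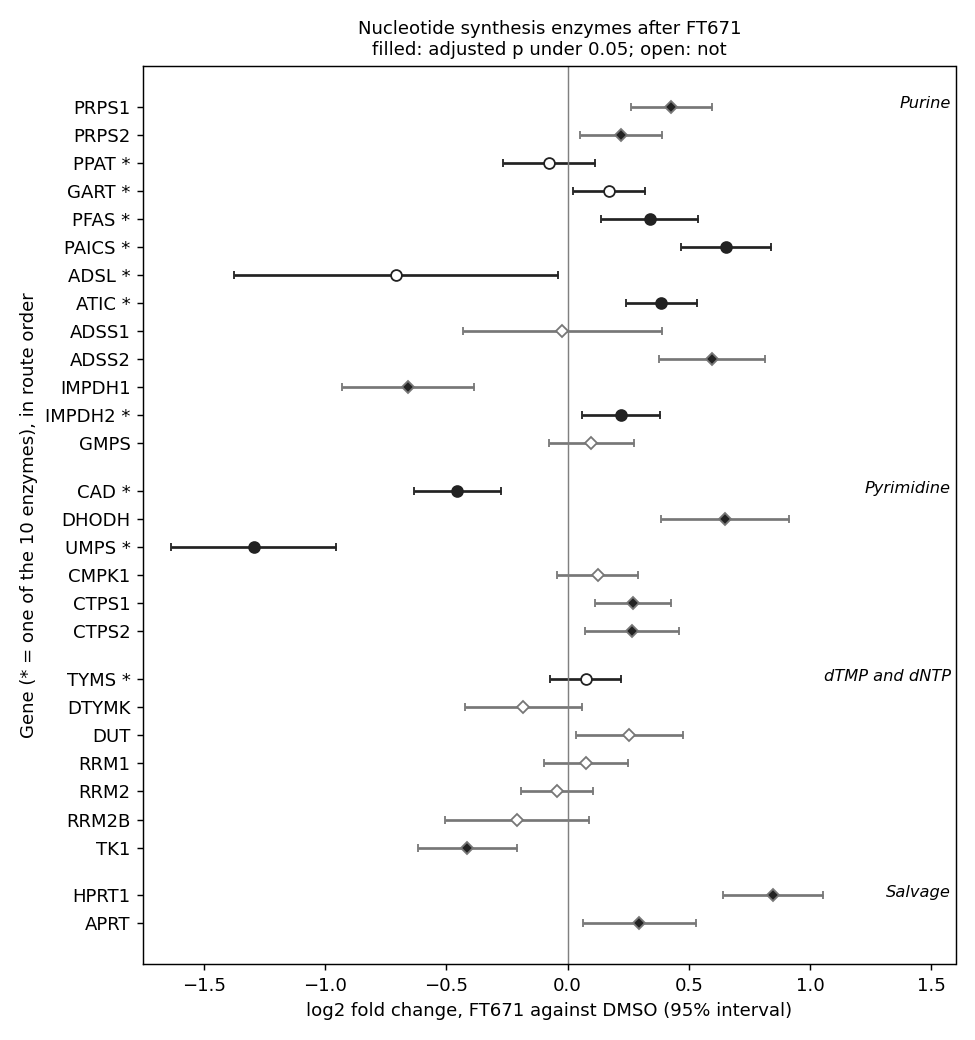
Log2 fold change of FT671 against DMSO with its 95% interval for the 10 enzymes (circles, starred names) and other enzymes of the same routes (diamonds), in route order. Filled symbols passed an adjusted p of 0.05 in edgeR's test. UMPS at −1.30 and CAD at −0.46 lie to the left and DHODH at 0.65 to the right within the pyrimidine route, and in the purine route PAICS at 0.65 and IMPDH1 at −0.66 lie farthest from 0 among those that passed.

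Of the 75 other genes listed for these routes and their supply, 68 were tested, of which 27 rose and 13 fell at 0.05, where 23.6% of all genes tested rose and 26.5% fell. The median log2 fold change of the 68 was 0.18, against −0.010 for all genes. These lists were also chosen with earlier results of the data known. In the rest of the purine route, the PRPP synthetases PRPS1 and PRPS2 rose 1.34-fold and 1.16-fold (adjusted p = 4.47e-04 and 0.0316 from edgeR). The PRPS2 call was lost under 8 of 16 alternatives, among them leaving out DMSO replicate 1 or 2 or FT671 replicate 2 or 3 (adjusted p = 0.115, 0.0795, 0.126 and 0.0888). ADSS2, which leads to AMP, rose 1.51-fold (adjusted p = 2.70e-04). GMPS, which makes GMP, was at 315 ± 32.3 CPM with DMSO and 336 ± 19.1 CPM with FT671 (SD, n = 3 each), with a log2 fold change of 0.097 (adjusted p = 0.343). GMPS passed 0.05 after the gene length correction (0.24, adjusted p = 0.00814) and without DMSO replicate 3 (0.18, adjusted p = 0.0137). ADSS1 was low, at 6.70 ± 1.10 and 6.93 ± 1.12 CPM (SD, n = 3 each), and the sign of its fold change differed between alternatives. PRPSAP1, a regulator that binds PRPP synthetase, fell by 0.44 on the log2 scale (adjusted p = 0.00118), whereas PRPSAP2 had a value of 0.24 (adjusted p = 0.10). Over the whole purine list of 13 genes, 7 rose and 1 fell.

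Past UMP, the CTP synthetases CTPS1 and CTPS2 rose 1.21-fold and 1.20-fold (adjusted p = 0.00677 and 0.0256 from edgeR), and the UMP and CMP kinase CMPK1 had a log2 fold change of 0.12 (adjusted p = 0.198), and of 0.20 without DMSO replicate 3 (adjusted p = 0.00718). All 3 other pyrimidine enzymes that passed rose, while the 2 fell that are among the 10. Over all genes tested, 23.6% were higher and 26.5% lower at the same threshold. Which pyrimidine enzymes are among the 10 was set by the list. The CTPS2 call was lost without DMSO replicate 1 or 2 or FT671 replicate 2 or 3 (adjusted p = 0.0563, 0.0837, 0.0923 and 0.138), and also with library totals alone and without a filter, where CTPS1 was likewise no longer called (0.23, adjusted p = 0.0520).

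Of 12 further genes for thymidylate and deoxynucleotides, DCTD, DCK and DGUOK rose and TK1, TK2 and SAMHD1 fell. These counts, 3 higher and 3 lower, are near the shares over all genes (23.6% higher and 26.5% lower). DGUOK, the mitochondrial deoxyguanosine kinase, was the highest (log2 fold change 0.86, adjusted p = 2.63e-06 from edgeR), from 50.7 ± 3.11 to 92.1 ± 4.79 CPM (SD, n = 3 each). TK2, the mitochondrial thymidine kinase, was the lowest (−1.23, adjusted p = 9.60e-05), and the cytosolic TK1 fell by 0.41 on the log2 scale (adjusted p = 0.00258). The ribonucleotide reductase subunits RRM1, RRM2 and RRM2B had log2 fold changes of 0.075, −0.043 (above 0 with the gene length correction) and −0.21. None of these 3 passed 0.05, except RRM2B with the GC correction (−0.30, adjusted p = 0.0404). DUT, which makes the substrate of TYMS, was at 0.25 (adjusted p = 0.0529) and passed 0.05 under 9 of 16 alternatives. DTYMK, which acts on the product of TYMS, was at −0.18 (adjusted p = 0.193).

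Of 10 salvage genes, which reuse free bases and nucleosides, 9 were tested, of which 5 rose, 1 fell and 3 did not pass the test, against 23.6% higher and 26.5% lower over all genes. HPRT1, which salvages hypoxanthine and guanine, rose 1.80-fold, from 55.7 ± 6.19 to 99.1 ± 7.61 CPM (SD, n = 3 each; adjusted p = 8.17e-06 from edgeR), and APRT rose 1.23-fold (adjusted p = 0.0356). The APRT call was lost without FT671 replicate 1, 2 or 3 (adjusted p = 0.159, 0.0541 and 0.0551), with library totals alone and with the gene length correction. ADA, adenosine deaminase, was the highest of the list (log2 fold change 1.26, adjusted p = 4.80e-06) and UCK2, a uridine and cytidine kinase, the one that fell (−0.22, adjusted p = 0.0201). Among 11 nucleotide kinases, 5 rose and the other 6 did not pass the test, beside the same shares over all genes. NME1 had the largest rise among them, from 84.7 ± 4.91 to 188 ± 14.9 CPM (SD, n = 3 each; log2 fold change 1.15, adjusted p = 1.47e-07), and its exons are in part those of a read-through gene to NME2. GUK1, the guanylate kinase, had the smallest value among those that rose (0.27, adjusted p = 0.0218). Of 15 genes of nucleotide breakdown, 9 were tested, of which 5 rose and 2 fell, again beside 23.6% and 26.5% over all genes, with NT5C3B highest (0.61, adjusted p = 2.77e-05) and NT5C2 lowest (−0.68, adjusted p = 5.13e-05).

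Folate enzymes supply the formyl groups used by GART and ATIC and the methylene group used by TYMS. Of 15 such genes, with serine synthesis included, 3 rose and 5 fell, near the shares over all genes (23.6% higher and 26.5% lower), and the median log2 fold change was −0.046. MTHFD1, the cytosolic enzyme that makes formyl folate, was the highest (0.55, adjusted p = 2.74e-05 from edgeR) and ALDH1L2, a mitochondrial enzyme that consumes it, the lowest (−1.11, adjusted p = 4.29e-06). Their summed level was 2480 to 2620 CPM in DMSO and 2230 to 2240 CPM after FT671.

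To compare levels between genes, CPM was divided by the length of the canonical transcript in GENCODE. Per kilobase, IMPDH2 was highest in DMSO at 284 ± 26.2 CPM per kb, followed by TYMS at 217 ± 11 and ATIC at 109 ± 5.16 (SD, n = 3 each). GART, at 104 ± 4.80, overlapped with ATIC. Then came PAICS at 54.3 ± 6.90, CAD at 24.7 ± 0.808, PPAT at 17.4 ± 0.992, PFAS at 10.7 ± 1.07, UMPS at 2.76 ± 0.136 and ADSL at 1.26 ± 0.480 CPM per kb (SD, n = 3 each). The ranges of other neighbours in this order did not overlap. The order of the means was the same after FT671, but ATIC at 143 ± 2.94 was then apart from GART at 117 ± 4.56, and CAD at 18.1 ± 1.99 overlapped with PPAT at 16.4 ± 0.848. UMPS at 1.14 ± 0.274 likewise overlapped with ADSL at 0.783 ± 0.270 CPM per kb (SD, n = 3 each). By mean CPM, not divided by length, 79.3% of all genes tested had a higher mean CPM than ADSL and 61.3% a higher one than UMPS, against 2.01% for IMPDH2 and 2.42% for PAICS. The transcripts that K562 cells use may be shorter or longer than the canonical ones, which was not tested. For ADSL, 30.6% of the canonical bases are also exon of another gene on the same strand, and reads on them may be missing from its counts. Its level was still divided by the full length, and how far this lowers its place was not tested. For TYMS, 66.5% of the canonical bases are also exon of genes on the opposite strand. Because the strand setting is not given, reads on these bases may be missing too. How far this lowers the place of TYMS was likewise not tested.

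**Figure D4:**
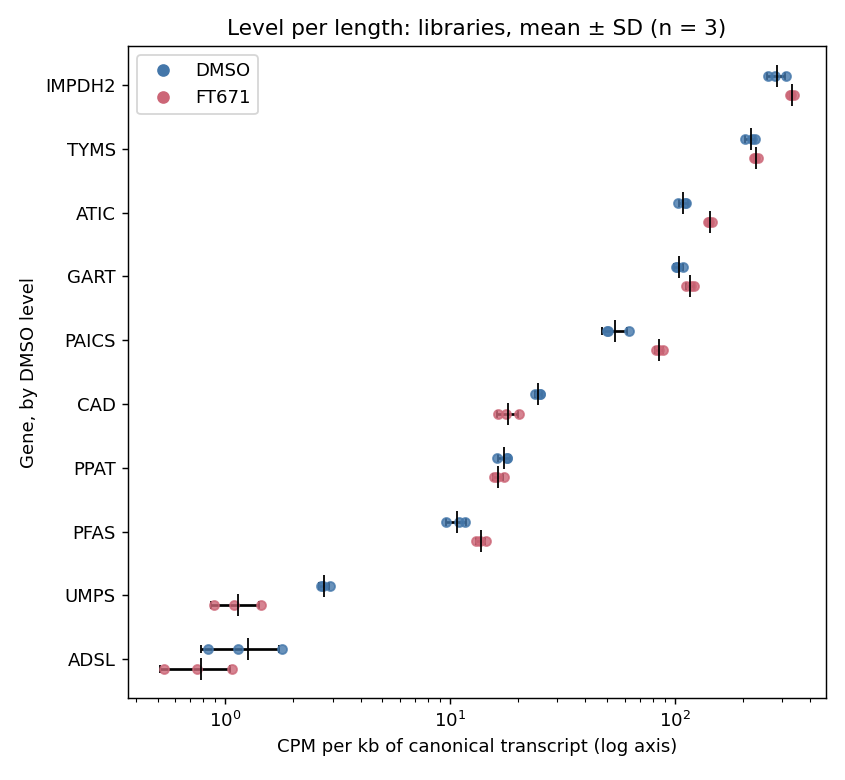
Level per length of the 10 enzymes, as CPM per kilobase of canonical transcript on a log axis, ordered by the DMSO mean, with blue points for DMSO libraries, red points for FT671 libraries and black marks for the mean and SD of 3. The levels run from 284 CPM per kb for IMPDH2 to 1.26 for ADSL in DMSO, and the points of CAD and UMPS are shifted to the left after FT671. The levels of ADSL and TYMS may lack reads on exon bases that they share with other genes.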

How the data were processed

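RNA-seq libraries of K562 cells treated with DMSO (3) or 10 μM FT671 for 48 h (3) were compared. Paired-end reads had been mapped to hg38 by the authors, who ran STAR in its two-pass setting, and the read counts per gene were deposited without normalization; the STAR version, annotation release and strand setting are not given in the sources used here. Of 60609 genes, 60295 were matched to GENCODE release 44. The 10 genes and all lists were chosen with earlier results of these data known. Genes were filtered with filterByExpr, which left 13895, scaled by TMM and tested two-sided with edgeR 4.0.16 (R 4.3.3) without covariates, with Benjamini-Hochberg adjustment over all genes tested. Standard errors are the log2 fold change divided by the square root of F, and CPM uses TMM-scaled totals. Ratios of counts were tested by exact permutation over the 6 libraries. Beside the 10 genes, the other enzymes of the routes were named, and of every other list the lowest and highest gene past 0.05; DCTD, DCK and SAMHD1 were named after their values were seen, and 1 gene of the lists is not reported here. Alternatives were DESeq2 1.42.0 (Wald test or size factors), library totals, other filters, gene length and GC corrections by loess (span 0.3), a replicate block and each library left out. Same-numbered libraries deviated together with r of 0.115, −0.0605 and 0.140 across genes. Differently numbered libraries were not compared, so these values cannot show whether the numbers pair the libraries. The reported fit treated the libraries as unpaired. The edgeR fit without and with the replicate block was run on simulated counts, and the outcome is not reported here. Promoter sequences are from RefSeq (GRCh38.p14).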

Additional observations from a re-analysis of the deposited data

How the results depend on the processing

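The 2 calls for lower expression (CAD and UMPS) and those for PAICS, PFAS and ATIC as higher held under all 16 alternatives. Between 3 and 5 of the 10 enzymes were higher and 2 or 3 lower in every alternative, as IMPDH2 was lost in 5 of them, GART gained in 9 and ADSL in 3; the cause was not tested.

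At an adjusted p of 1e-05, where 0 of the 10 were called by edgeR, the count was 2 with DESeq2's Wald test, 3 without a filter, 1 with the replicate block (PAICS), 1 with the gene length correction and 2 with it and the block, and 3 with the GC correction, with or without the block. With a library left out it was 0 to 3, and 3 without DMSO replicate 3. S-phase genes called higher, 8 in the reported fit, numbered 5 without a filter and 3 to 10 with a library left out: 5 without DMSO replicate 1 or FT671 replicate 1, 4 without FT671 replicate 2 and 3 without FT671 replicate 3.

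Among the 10 enzymes and the other named enzymes, signs changed for PPAT, RRM2 and ADSS1, none of which passed 0.05 under any alternative. PPAT was at 0.013 after the gene length correction and 0.0028 with the block added, and RRM2 at 0.097 and 0.10. ADSS1 was at 0.022 in DESeq2's Wald test, 0.048 with the replicate block, 0.073 and 0.15 with the gene length correction without and with the block, 0.035 and 0.11 with the GC correction without and with it, and −0.13 to 0.15 with a library left out (0.15, 0.022 and 0.069 without DMSO replicate 1, FT671 replicate 2 and FT671 replicate 3).

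The replicate block otherwise changed the calls of GART (0.17, adjusted p = 0.0400) and DUT (0.28, adjusted p = 0.00551) alone among the 10 enzymes and the other named enzymes of the routes. With a library left out, the difference in log2 ratio was 0.66 to 0.82 for PAICS to PPAT and 0.78 to 1.02 for IMPDH2 to IMPDH1. The low counts of ADSL, 18 to 72 per library, limit the precision of its value.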
